A study of Mus musculus with 6 samples.

Results

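The collagen prolyl and lysyl hydroxylases were examined as 10 genes in 3 families: the prolyl 4-hydroxylase alpha subunits P4ha1, P4ha2 and P4ha3, the lysyl hydroxylases Plod1, Plod2 and Plod3, and the prolyl 3-hydroxylase family P3h1, P3h2, P3h3 and P3h4. They were taken by symbol from a gene table of 51482 measurements, and all 10 were found and were among the 14575 measurements that the authors had tested. The cells were wild-type mouse embryonic fibroblasts immortalised with the SV40 virus, which keeps cultured cells dividing. Cultures were kept at 21% oxygen (normoxia) or 0.5% oxygen (hypoxia) for 16 h, with 3 biological replicates of each condition, and RNA was sequenced from poly-A selected, stranded libraries. Both groups share the genotype and the SV40 immortalisation, so no primary cells are in the comparison. The question put to the data is how transcript levels of the hydroxylase genes compare between the oxygen levels. Each gene has 1 FPKM per condition (fragments scaled to transcript length and library size). The authors' replicates are merged in it, and therefore no value of a single sample and no SD can be given. The words rose and fell are used only of genes with a q-value below 0.05 in the authors' deposited table, which are referred to as called.

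Collagen chains are hydroxylated in the endoplasmic reticulum before they fold into a triple helix. Prolyl 4-hydroxylase makes the 4-hydroxyproline that keeps the helix stable at body temperature, lysyl hydroxylases make the hydroxylysine used for cross-links and for attachment of sugars, and prolyl 3-hydroxylases modify a small number of proline sites. The catalytic members use molecular oxygen, 2-oxoglutarate, iron and ascorbate. Several of these genes are textbook targets of HIFs, the hypoxia-inducible transcription factors that accumulate when oxygen is low.

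Of the 10 genes 8 were called, 6 higher and 2 lower in hypoxia, beside 57.9% of all tested measurements called in either direction, 28.9% called higher and 29.0% called lower. The median log2 fold change of the 10 genes was 0.55, beside -0.013 over the 14529 tested measurements above 0 in both conditions. A rise of at least 2-fold was reached by P4ha1, P4ha2 and Plod2, and a fall of at least 2-fold by none of the 10 in the authors' Cuffdiff calls, where 9.03% of tested measurements were called at least 2-fold higher and 9.87% at least 2-fold lower. The summed FPKM of the 10 genes was 411 in normoxia and 1184 in hypoxia, 2.88-fold higher. Most of this increase came from P4ha1, P4ha2 and Plod2, and the sum over all measurements was itself 1.17-fold higher in hypoxia. In bulk RNA a change in the make-up of the culture and a change in RNA per cell cannot be told apart.

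**Figure D1:**
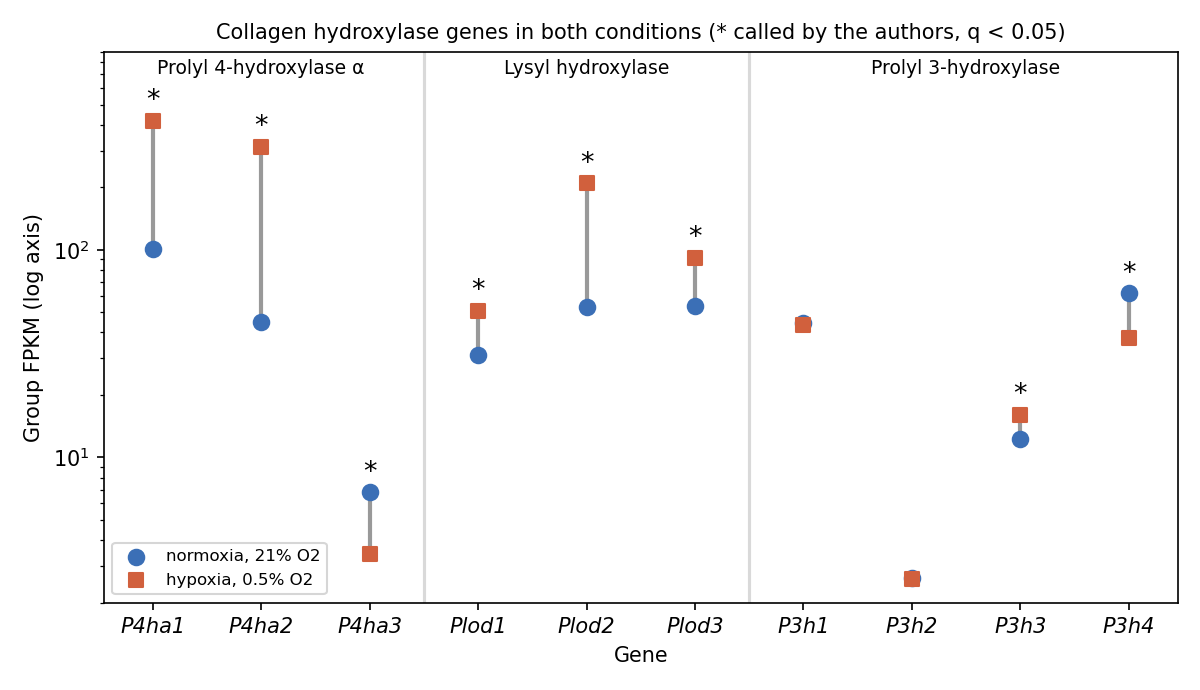
Group FPKM (log axis) of the 10 hydroxylase genes in normoxia (circles) and hypoxia (squares), by family, asterisks marking the called genes. P4ha1, P4ha2 and Plod2 stand far apart between conditions, at 100 and 417, 44.8 and 313, and 53.2 and 208 FPKM, whereas the markers of P3h1 and P3h2 lie on top of each other.

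The labelled cell type and treatment were checked with other genes. Of 10 fibroblast markers with a row of their own, 8 reached 1 FPKM on average of the groups, Vim and Col1a1 among them, while Fap and Lum stayed at or below 0.0688 FPKM. Of the 8 tested fibroblast markers 5 fell (Col1a2, Col3a1, Thy1, Pdgfrb and Dcn), Vim rose 2.55-fold and 2 were not called. Their median log2 fold change was -0.43. For these markers and the epithelial ones below, the background is 29.0% of all tested measurements called lower and 28.9% called higher. The part of these marker changes in the hydroxylase values was not tested. All 5 endothelial markers stayed at or below 0.0906 FPKM, and of 5 leukocyte markers 3 were at or below 0.0800 FPKM and the highest reached 2.27 FPKM. Epithelial markers were present: 5 of 6 had a mean of at least 1 FPKM, Epcam stood at 5.97 and 5.22 FPKM, Krt5 was at 0 and 0.00564 FPKM, and their summed level was 369 FPKM in normoxia and 473 FPKM in hypoxia, most of it Krt18 (313 and 443 FPKM). Krt18 was the 1 epithelial marker that rose, while Krt8 fell 2.80-fold from 28.3 to 10.1 FPKM, Cdh1 fell 1.58-fold and Krt14 1.47-fold, and the median log2 fold change of the 5 tested markers was -0.56. The part of such cells or of epithelial gene expression in the values below was not tested. All 10 known HIF targets listed as a check of the oxygen label rose, beside 28.9% of all tested measurements called higher. Their median log2 fold change was 2.89. This list was chosen with earlier results of these data known, so it is no independent check. Adm, which encodes adrenomedullin, rose 54.5-fold, from 0.669 to 36.4 FPKM, a fold that rests on a normoxia level below 1 FPKM. Ndrg1 rose 12.8-fold, Ankrd37 12.5-fold, Car9 8.37-fold, Bnip3 7.57-fold and Slc2a1 7.26-fold.

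The prolyl 4-hydroxylase alpha subunits carry the catalytic site and pair with the beta subunit P4hb, which is also protein disulfide isomerase. P4ha1 (ENSMUSG00000019916, chromosome 10, 59323296 to 59373304 on GRCm38, plus strand), generally the main alpha subunit, went from 100 FPKM in normoxia to 417 FPKM in hypoxia, a 4.15-fold rise. P4ha2 (ENSMUSG00000018906, chromosome 11, 54100095 to 54131665, plus strand), the alpha subunit known from cartilage and other matrix-forming tissue, went from 44.8 to 313 FPKM, a 6.99-fold rise. P4ha3 (ENSMUSG00000051048, chromosome 7, 100285520 to 100319699, plus strand), the least studied alpha subunit, went the other way, from 6.79 to 3.43 FPKM, a 1.98-fold fall. All of them had a q of 0.000139 in the authors' deposited table, the smallest it holds, which 5148 tested measurements share. None of these genes overlaps another gene in the annotation.

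The 3 alpha subunits thus had log2 fold changes of 2.05, 2.80 and -0.99, a span of 3.79. Among the tested measurements above 0 in both conditions, 189 had a larger fold change than P4ha2 and 460 a larger one than P4ha1, and P4ha3 stood at percentile 12.4. The summed FPKM of the subunits went from 152 to 734, a 4.82-fold difference for which no test over replicates could be made. Within that sum the share of P4ha1 went from 66.1% to 56.9%, that of P4ha2 from 29.5% to 42.6% and that of P4ha3 from 4.47% to 0.467%. P4ha1 was thus the most abundant alpha subunit transcript in both conditions, but its level was 2.24 times that of P4ha2 in normoxia and 1.33 times in hypoxia. The ratio of P4ha1 to P4ha3 went from 14.8 to 121.7, and that of P4ha2 to P4ha3 from 6.60 to 91.2. P4hb rose 2.67-fold, from 503 to 1344 FPKM, so the summed alpha subunits stood at 0.302 of the P4hb level in normoxia and 0.546 in hypoxia. P4hb also serves as a chaperone and oxidoreductase outside this enzyme, so the ratio is one of transcripts and not of assembled enzyme. Whether the fold changes of the subunits differ from each other beyond replicate error could not be tested with 1 value per condition.

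**Figure D2:**
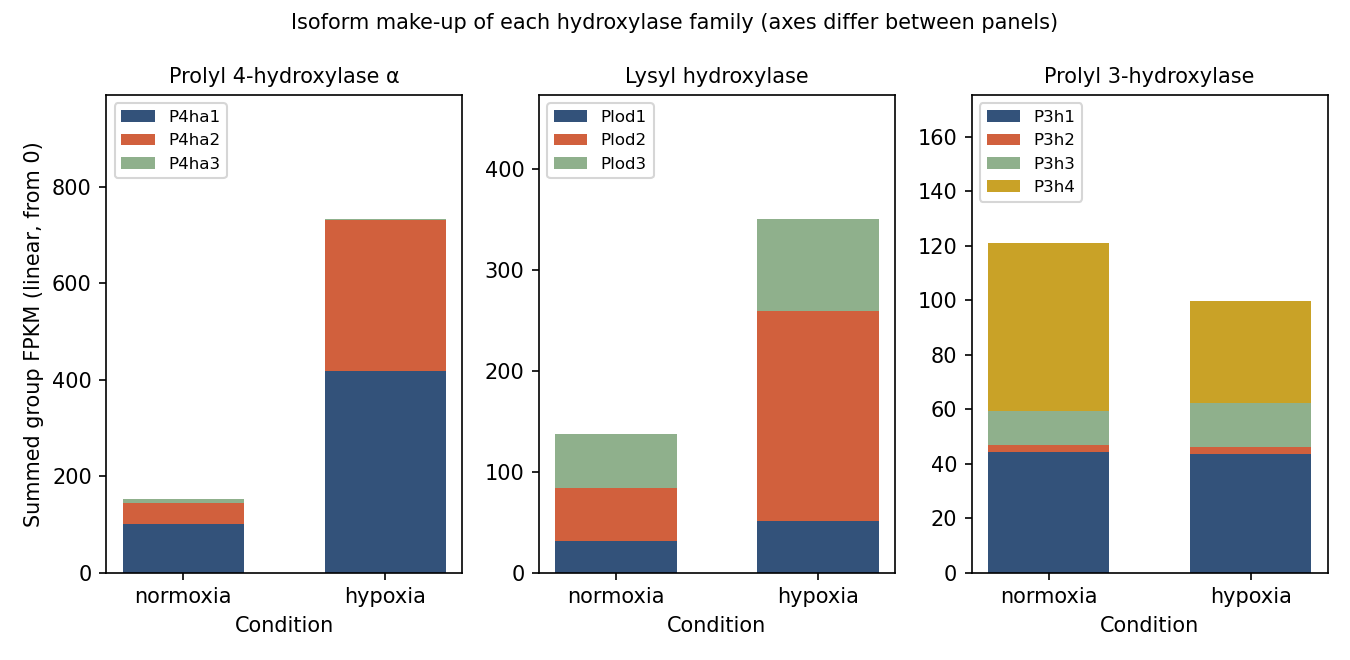
Summed group FPKM (linear axes from 0, which differ between panels) of each hydroxylase family in normoxia and hypoxia, with the isoforms stacked. The prolyl 4-hydroxylase alpha sum goes from 152 to 734 FPKM with a growing P4ha2 layer, the lysyl hydroxylase sum from 138 to 350 FPKM mostly through Plod2, and the prolyl 3-hydroxylase sum goes from 121 to 99.8 FPKM through a thinner P3h4 layer.

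The sequences upstream of the alpha subunit genes are shown, a choice made after the directions of these paralogues were seen. They are the 250 bases before the RefSeq start of each gene on GRCm38.p6, all on the plus strand: P4ha1 at chr10:59323046-59323295, P4ha2 at chr11:54100674-54100923 and P4ha3 at chr7:100285270-100285519. Capitals mark ACGTG and GCGTG, the core letters of the HIF response element, on either strand (CACGT and CACGC where the match is on the minus strand).
P4ha1: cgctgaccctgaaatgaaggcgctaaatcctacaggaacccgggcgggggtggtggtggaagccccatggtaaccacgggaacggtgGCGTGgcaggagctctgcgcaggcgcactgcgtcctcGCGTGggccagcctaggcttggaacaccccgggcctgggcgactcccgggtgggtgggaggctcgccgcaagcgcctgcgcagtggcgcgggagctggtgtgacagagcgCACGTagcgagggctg
P4ha2: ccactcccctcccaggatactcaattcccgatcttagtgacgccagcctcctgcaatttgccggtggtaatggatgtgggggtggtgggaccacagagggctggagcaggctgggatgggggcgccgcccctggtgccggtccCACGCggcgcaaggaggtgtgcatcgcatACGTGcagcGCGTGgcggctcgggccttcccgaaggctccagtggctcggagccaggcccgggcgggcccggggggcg
P4ha3: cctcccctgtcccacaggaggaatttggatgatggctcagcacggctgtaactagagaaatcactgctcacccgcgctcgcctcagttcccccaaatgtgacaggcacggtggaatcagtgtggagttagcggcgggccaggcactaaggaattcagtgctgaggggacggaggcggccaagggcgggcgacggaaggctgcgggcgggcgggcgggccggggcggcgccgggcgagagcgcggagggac
The P4ha1 window holds GCGTG from 163 and from 126 bases before the start and CACGT from 16 bases before it. The P4ha2 window holds CACGC from 107, ACGTG from 78 and GCGTG from 69 bases before the start. The P4ha3 window holds none of these letters. Windows of this length held at least 1 such match in 38.6% of 32851 RefSeq starts, and ACGTG on either strand, the narrower set, in 16.6%. No window of the alpha subunits contains CACGTG, the E-box that overlaps these letters. The base composition of the windows was alike, at 69.6%, 70.0% and 67.2% G or C, above the median of 52.4% over all windows. The P4ha2 window lies inside an intron of a longer annotated transcript of that gene that starts at 54100095. The shares over all starts are not matched for base composition, so they are no chance rate for these windows. A match is a description of letters and not a binding site. Whether the letters have a part in the directions of the genes was not tested.

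Of the other members, RefSeq windows were found for Plod1, Plod3, P3h1 and P3h3, so that 7 of the 10 genes had one. Plod2, P3h2 and P3h4 had no window and were not searched. At least 1 ACGTG or GCGTG match was present for 5 of the 7 genes, P4ha1, P4ha2, Plod1, Plod3 and P3h1, and not for P4ha3 and P3h3. The narrower ACGTG was present for 4, P4ha1, P4ha2, Plod3 and P3h1. Over all RefSeq starts the shares were 38.6% for either match and 16.6% for ACGTG, counted per window and not per gene. P3h1, which was not called, has 2 windows with 2 matches each. Of these windows 1 lies inside the gene and overlaps an exon of its own, and only that window holds ACGTG. P3h3, which rose, has no match, but its window overlaps annotated exons of P3h3 and so is not all upstream sequence.

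All 3 lysyl hydroxylases rose. Plod2 (ENSMUSG00000032374, chromosome 9, 92542223 to 92608428, plus strand), whose product hydroxylates lysines in the telopeptides of collagen and so sets the type of cross-link, went from 53.2 to 208 FPKM, a 3.92-fold rise. Plod3 (ENSMUSG00000004846, chromosome 5, 136987019 to 136996648, plus strand), whose product also attaches sugars to hydroxylysine, went from 53.4 to 91.1 FPKM (1.71-fold). Plod1 (ENSMUSG00000019055, chromosome 4, 147909753 to 147936767, minus strand), which acts on lysines in the helical part of collagen, went from 31.0 to 50.7 FPKM (1.64-fold). The q of all of them in the authors' deposited table was 0.000139.

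Plod2 and Plod3 had nearly equal levels in normoxia, with Plod2 at 0.997 times Plod3, and Plod2 stood at 2.29 times the Plod3 level in hypoxia. The ratio of Plod2 to Plod1 went from 1.72 to 4.11. In the summed FPKM of the family, which was 138 in normoxia and 350 in hypoxia (2.55-fold), the share of Plod2 went from 38.7% to 59.5%, that of Plod3 from 38.8% to 26.0% and that of Plod1 from 22.5% to 14.5%. Among tested measurements 508 had a larger fold change than Plod2, while Plod3 and Plod1 stood at percentiles 83.9 and 82.2. The start of Plod3 overlaps the minus-strand gene Znhit1 over 1003 bases, and the table carries the Plod3 measurement a second time under the miRNA gene that lies inside it, counted once here. Znhit1 has its own row at 67.5 and 102 FPKM, called higher 1.51-fold, and no source used here says whether the counting was by strand, and its part in the Plod3 value was not tested. Plod2 overlaps the minus-strand transcript Gm38391 over 647 bases, at 0.587 and 0.0994 FPKM far below Plod2.

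The prolyl 3-hydroxylase family did not rise as a group: P3h3 rose, P3h4 fell, and P3h1 and P3h2 were not called. P3h1 (ENSMUSG00000028641, chromosome 4, 119232915 to 119248975, plus strand), which works in a complex with Crtap and the cyclophilin Ppib on fibrillar collagen, was nearly level, with 44.3 FPKM at 21% and 43.5 FPKM at 0.5% oxygen, and the authors' deposited table gives a q of 0.856. P3h2 (ENSMUSG00000038168, chromosome 16, 25959288 to 26105784, minus strand), an enzyme known for basement membrane collagen, was the lowest of the 10 genes in both conditions, at 2.63 and 2.60 FPKM, with a q of 0.940 in the authors' deposited table. P3h3 (ENSMUSG00000023191, chromosome 6, 124841089 to 124857752, minus strand) went from 12.3 to 16.0 FPKM, a rise of 1.31-fold with a q of 0.00629 in the authors' deposited table. P3h4 (ENSMUSG00000006931, chromosome 11, 100408456 to 100414836, minus strand), a family member without the catalytic domain that binds P3h3 and Plod1 in a complex needed for lysine hydroxylation, fell 1.64-fold, from 61.7 to 37.7 FPKM, with a q of 0.000139 in the authors' deposited table.

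P3h4 was the second most abundant of the 10 transcripts in normoxia and the seventh in hypoxia. Its ratio to P3h3 went from 5.03 to 2.35, and its share of the family's summed FPKM from 51.0% to 37.8%. The family's sum went from 121 to 99.8 FPKM, and without P3h4 from 59.2 to 62.1 FPKM. Within the complex of P3h3, P3h4 and Plod1 the transcripts therefore moved in different directions, P3h3 and Plod1 higher and P3h4 lower. Within the P3h1 complex, Crtap fell 1.26-fold, from 42.8 to 34.1 FPKM, and Ppib was at 439 and 462 FPKM with a q of 0.520 in the authors' deposited table. P3h2 overlaps the antisense gene Gm4524 and the intronic gene AU015336, both of which stayed at or below 0.0266 FPKM.

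By level per length, the order in normoxia was P4ha1, P3h4, Plod3, Plod2, P4ha2, P3h1, Plod1, P3h3, P4ha3 and P3h2. In hypoxia it was P4ha1, P4ha2, Plod2, Plod3, Plod1, P3h1, P3h4, P3h3, P4ha3 and P3h2. P4ha1, P3h1, P3h3, P4ha3 and P3h2 kept their places. Which neighbours in these orders differ beyond their spread could not be tested, since the table gives no spread within a condition. Among all tested measurements P4ha1 stood at percentile 93.4 of FPKM in normoxia and 98.6 in hypoxia, P4ha2 at 83.2 and 98.1, and Plod2 at 86.3 and 97.0.

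**Figure D3:**
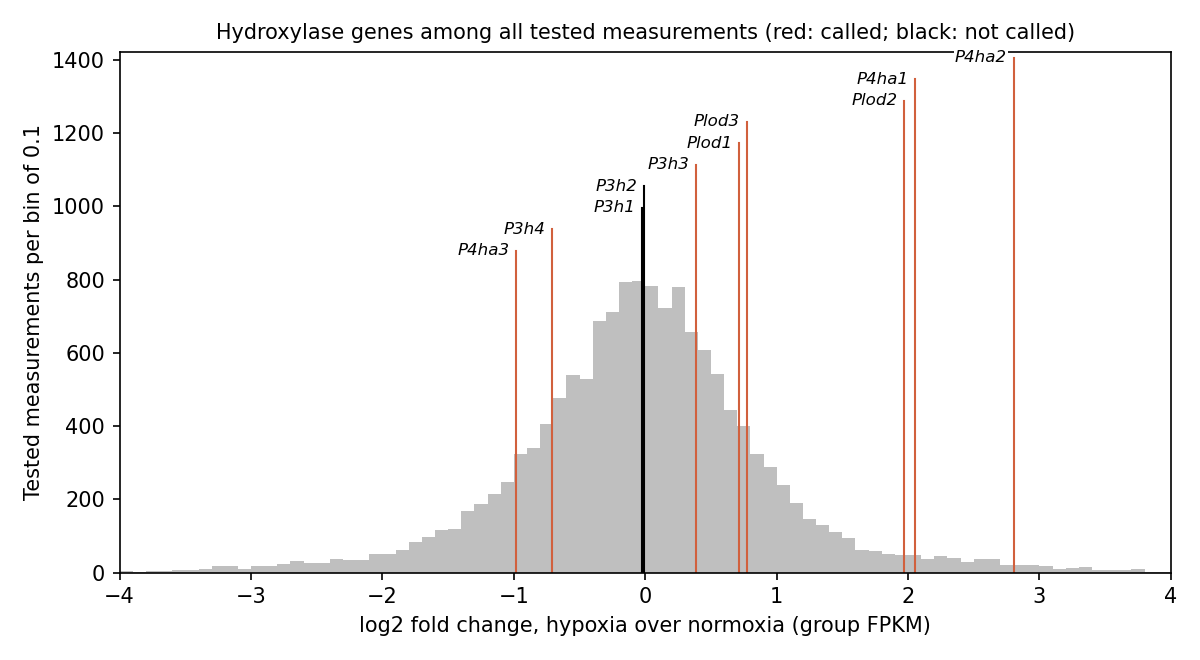
Histogram of the log2 fold change of hypoxia over normoxia for the tested measurements (bins of 0.1, shown from -4 to 4, with 86 measurements outside), with a line for each hydroxylase gene, red where called and black where not. P4ha2 at 2.80, P4ha1 at 2.05 and Plod2 at 1.97 lie in the upper tail, P3h1 and P3h2 at the centre, and P4ha3 at -0.99 and P3h4 at -0.71 on the lower side.

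The measurements with the pair of values most like those of the strongly raised members were searched among tested measurements of single genes. Distance was taken in log2 FPKM over both conditions, which are only 2 group values. Nearest to P4ha1 were Lonp1 (112 and 355 FPKM), the gene of the mitochondrial matrix protease LON, Vegfa (101 and 508 FPKM), the angiogenic growth factor gene, and Bnip3l (79.6 and 414 FPKM), a mitophagy receptor gene, at distances of 0.28 to 0.34. Nearest to P4ha2 were the ubiquitin ligase gene Rnf126 (51.6 and 298 FPKM), the stress response gene Ier3 (53.0 and 339 FPKM) and the phosphoglucomutase gene Pgm2 (56.8 and 331 FPKM), at 0.21 to 0.35. Nearest to Plod2 were the haem oxygenase gene Hmox1 (47.4 and 226 FPKM), the phosphatase gene Pgp (58.2 and 179 FPKM) and the stress gene Gadd45b (42.6 and 193 FPKM), at 0.20 to 0.34.

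The partners of the hydroxylases are the proteins that assemble with or assist them. Of 9 tested partner genes 1 rose, 3 fell and the other 5 were not called, a share called of 44.4% beside 57.9% of all tested measurements. Their median log2 fold change was -0.0017. P4hb was the gene that rose. Crtap fell as given above, Fkbp10, a peptidyl-prolyl isomerase that assists PLOD2, fell 1.31-fold from 113 to 86.6 FPKM, and Serpinh1, the collagen chaperone HSP47, fell 1.25-fold from 998 to 797 FPKM. The level of Plod2 was 0.470 times that of Fkbp10 in normoxia and 2.41 times in hypoxia. Fkbp10 starts 861 bases from P3h4 on the opposite strand. Both fell, beside 29.0% of all tested measurements called lower, and a link between them was not tested.

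The collagen chains are the substrates of the enzymes. Of 16 tested chains 6 rose, 3 fell and 7 were not called, a share called of 56.2%, near the 57.9% of all tested measurements, so the counts are no result about the chains. Col1a1, a chain of type I collagen, had 463 FPKM under normoxia and 451 FPKM under hypoxia, with a q of 0.800 in the authors' deposited table. Its partner Col1a2 fell 1.53-fold, from 140.1 to 91.7 FPKM, and Col3a1 1.80-fold, from 328 to 182 FPKM, and Col6a2 fell from 108 to 67.5 FPKM. Col12a1 rose from 3.60 to 14.5 FPKM, Col11a1 from 4.06 to 11.0 FPKM, Col5a3 from 0.999 to 1.71 FPKM and Col6a3 from 0.658 to 1.63 FPKM. The more abundant Col5a2 rose from 140.1 to 184.9 FPKM and Col4a5 from 46.6 to 59.6 FPKM. The summed FPKM of the 17 chains was 1671 under normoxia and 1490 under hypoxia (0.892 times), while the prolyl 4-hydroxylase alpha sum stood at 0.329 times the Col1a1 level in normoxia and 1.62 times in hypoxia. The lysyl hydroxylase sum went from 0.298 to 0.776 times the Col1a1 level and the prolyl 3-hydroxylase sum from 0.261 to 0.221 times. Without P3h4, which lacks the catalytic domain, the prolyl 3-hydroxylase sum was 59.2 FPKM in normoxia and 62.1 FPKM in hypoxia.

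Export, propeptide removal and cross-linking follow hydroxylation. Of 11 tested measurements of procollagen export and propeptide removal 2 rose, 4 fell and 5 were not called, a share called of 54.5%, near that of all tested measurements. Mia2, which had no row under that symbol, and Pcolce, which had only a row shared with another gene, are not counted. Ctage5, looked up in place of Mia2, was called lower 1.42-fold, from 25.8 to 18.2 FPKM. The row shared by Pcolce and Fbxo24 was at 220 and 230 FPKM and was not called. The COPII coat gene Sec24d rose 1.31-fold and the propeptide protease gene Adamts3 1.40-fold, while Pcolce2, an enhancer of propeptide removal, fell 2.11-fold from 2.38 FPKM, Adamts14 fell 2.15-fold from 2.75 FPKM and the transcription factor gene Creb3l1 fell 1.36-fold. Mia3, the gene of the procollagen export receptor TANGO1, has 2 measurements at different places in the gene. The less abundant, at 12.7 and 9.85 FPKM, was called lower. The more abundant, at 75.1 and 56.6 FPKM, was not called, with a q of 0.0573 in the authors' deposited table. Of the 5 lysyl oxidases, which start cross-links from lysine and hydroxylysine, Lox rose 2.21-fold to 137 FPKM and Loxl2 2.86-fold to 100.4 FPKM, Loxl1 fell 3.42-fold to 6.31 FPKM and Loxl4 1.51-fold to 8.25 FPKM, and Loxl3 was not called. The share called was 80.0% of these 5 genes, beside 57.9% of all tested measurements.

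Supply of cofactors and related enzymes gave the following values. Of 7 tested genes for ascorbate and iron supply 2 rose, 2 fell and 3 were not called, a share called of 57.1% beside 57.9% of all tested measurements, which is no result about this group. Tfrc, the transferrin receptor gene, rose 3.67-fold from 25.8 to 94.6 FPKM and the zinc transporter gene Slc39a13 1.76-fold, while the iron transporter gene Slc11a2 fell 1.91-fold and Gsto1 1.50-fold. Slc23a2, an ascorbate transporter gene, was at 6.22 and 5.75 FPKM and was not called. Of 7 other hydroxylases that use oxygen and 2-oxoglutarate 3 rose, 1 fell and 3 were not called, again a share called of 57.1% and near the background. Egln1, the main HIF prolyl hydroxylase gene, rose 4.83-fold to 173 FPKM, Egln3 2.72-fold to 29.3 FPKM and Asph, an aspartyl hydroxylase gene of the endoplasmic reticulum, 2.68-fold to 71.9 FPKM, and Ogfod3 fell 2.39-fold to 3.58 FPKM.

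**Figure D4:**
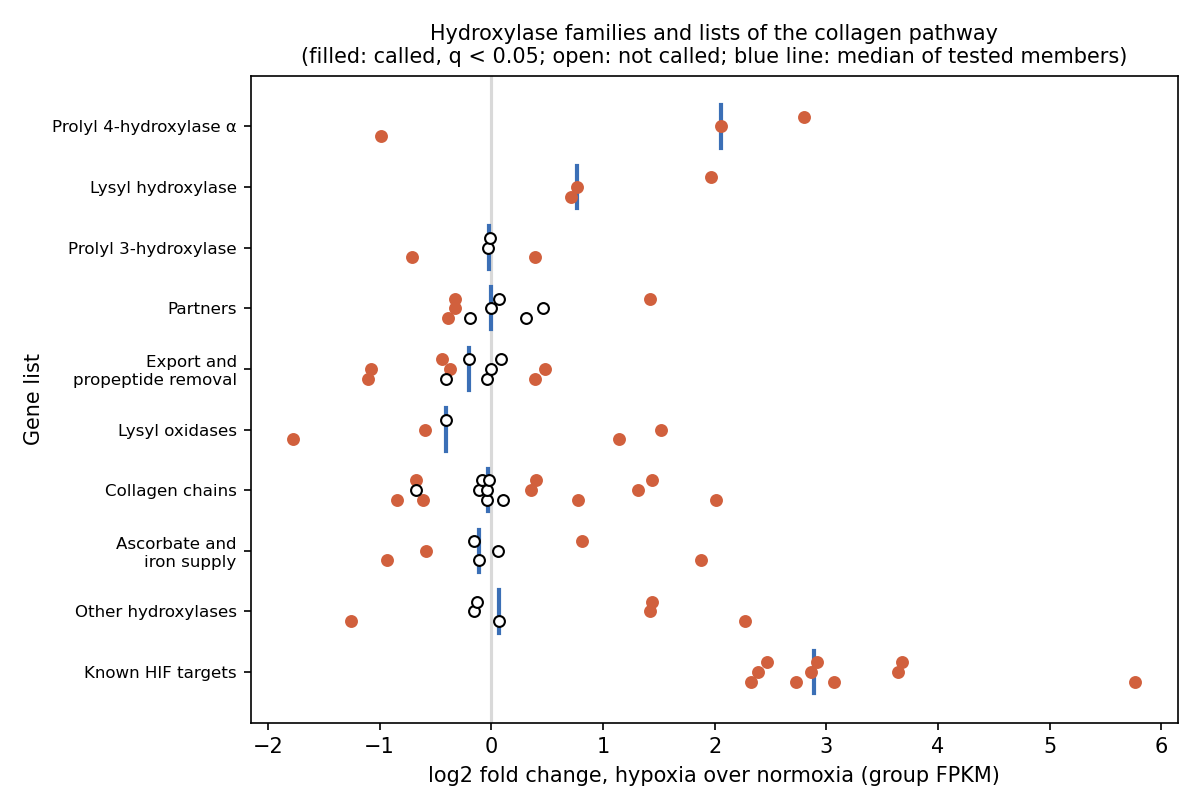
log2 fold change of hypoxia over normoxia (group FPKM) of each tested measurement in the hydroxylase families and in 7 lists of the pathway, filled where called and open where not, with the median of each list as a blue line. The medians of the partners (-0.0017) and collagen chains (-0.030) lie near 0, those of the prolyl 4-hydroxylase alpha subunits (2.05) and known HIF targets (2.89) far to the right.

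In the gene ontology labels of the deposited table, 9 of the 10 genes carry L-ascorbic acid binding and iron ion binding, all but P3h4, and all 10 carry endoplasmic reticulum. Response to hypoxia is attached to Plod1 and Plod2 only among the 10 genes, and P4ha1 and P4ha2, with larger fold changes than Plod1, do not carry it. Annotated coding transcripts range from 1 for P3h2 and P3h3 to 8 for P4ha2, and the longest coding transcript from 2178 bases in 8 exons for P3h4 to 4043 bases in 15 exons for P4ha1. The table gives 1 value per gene, so the transcripts of P4ha2 could not be told apart.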

How the data were processed

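RNA was sequenced from 3 normoxia and 3 hypoxia samples. The submitters' processing notes name GRCm38 as the build and the tools Cuffdiff 2.2.1, Cufflinks, StringTie 1.3.4d and HISAT2 2.1.0. The authors deposited 1 table with an FPKM per gene and condition, a log2 fold change, a q-value and a p-value, and a test score that was left unused, per the file headers. The scaling between libraries is not stated in what was used here. The deposited log2 values matched log2 ratios of the deposited FPKM within 1.2e-05. Benjamini-Hochberg adjustment of the deposited p-values differed from the deposited q-values by at most 0.0020.

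Repeated rows were counted once (pandas 2.3.3, Python 3.11.15). Folds are ratios of group FPKM without a pseudocount, and shares are of the summed FPKM of a family. No test was run here, because the table holds no values of single samples; fits planned for such values were replaced by the authors' calls. The functions were tested on simulated data. Coordinates are from GENCODE M21 (GRCm38) and sequences from RefSeq on GRCm38.p6. Depth is unknown.

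Members and lists were chosen with earlier results of these data known. Named genes were the 10 members, up to 6 called genes per list with a mean of at least 1 FPKM by size of change, P4hb, Crtap, Ppib, Serpinh1, Col1a1, Col1a2 and Egln1, and the 3 nearest measurements to P4ha1, P4ha2 and Plod2. Others named were chosen after their values were seen. Markers of chondrocytes or osteoblasts and of neural cells were also listed: of 7 and 5 genes, 2 and 3 had a mean of at least 1 FPKM, at no more than 24.9 FPKM. The neural marker Tubb3 had no row. Of the tested ones Runx2 rose 2.03-fold, Sox9 1.92-fold and Map2 1.92-fold. Nes fell 2.07-fold, Sp7 fell 2.28-fold at below 1 FPKM, and Sox2 was not called. Of all tested measurements 57.9% were called. The part of these changes in the hydroxylase values was not tested.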

Additional observations from a re-analysis of the deposited data

How the results depend on the processing

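No paired analysis was possible because the table holds 1 value per condition and no values of single samples; leaving out replicates could not be run for the same reason. With at least 2-fold required beside q below 0.05, 3 genes were called higher and 0 lower, in place of 6 and 2; no other count of members or of pathway genes moved by over 1.5 times with q below 0.01, with a filter on low FPKM or with rows of several genes included. The summed FPKM of all measurements was 1.17-fold higher in hypoxia, and rescaling to equal sums, added after seeing the data for single genes, shifts every log2 fold change down by 0.22. It gave 1.83 for P4ha1, 2.58 for P4ha2, -1.21 for P4ha3, 0.49 for Plod1, 1.75 for Plod2, 0.55 for Plod3, -0.25 for P3h1, -0.24 for P3h2, 0.16 for P3h3 and -0.94 for P3h4. Under it the family sums changed 4.13-fold for prolyl 4-hydroxylase alpha, 2.18-fold for lysyl hydroxylase and 0.707-fold for prolyl 3-hydroxylase. No called member changed direction. With a pseudocount of 1 FPKM the log2 fold change of P4ha3 was -0.81. The median of ratios moved no member by more than 0.1.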

Other observations

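The deposited table labels 9 further tested genes with L-ascorbic acid binding, a group chosen after the values were seen. Of these 3 rose, 1 fell and 5 were not called, a share called of 44.4% beside 57.9% of all tested measurements. Besides the HIF hydroxylases Egln1 and Egln3, Ogfod2 rose 2.45-fold, from 9.84 to 24.1 FPKM, and Ogfod3 fell from 8.54 to 3.58 FPKM. Values of the other genes were close between conditions: Pam, which amidates peptides, was at 10.6 and 10.8 FPKM, Phyh, an enzyme of phytanic acid breakdown, at 10.2 and 9.91 FPKM, Ogfod1, a ribosomal prolyl hydroxylase gene, at 10.1 and 9.09 FPKM, Egln2 at 30.0 and 26.9 FPKM, and P4htm, a transmembrane prolyl hydroxylase gene, at 2.24 and 2.35 FPKM. Over all 9 genes the median log2 fold change was 0.015.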
